A study of Mus musculus with 20 samples.

Results

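The 8 genes described here belong to the Schwann cell and were read in sorted Trpv1 neurons of the mouse dorsal root ganglion (DRG). They were chosen by name and found by Ensembl identifier: Mbp, Pmp22, Mag, Cnp, Prx, Mal, Egr2 and Sox10, which are 8 of the 37620 genes in the expression table. The libraries hold RNA of cells sorted from lumbar (L4-L5) and sacral (L6-S1) DRG of 5 male and 5 female donors, so that there were 20 libraries in 4 groups of sex and level. All donors were homozygous for Trpv1tm2Bbm, a reporter allele that makes beta-galactosidase in the cells that express Trpv1, and were 6 to 8 weeks old, with no treatment named. Cells were taken at the flow cytometer for the brightest signal of a fluorescent beta-galactosidase product, and no Schwann cell marker is named for the gate. Each donor label carries a pair of animal numbers, whereas the study's methods speak of single mice, and whether the cells of a pair of animals were pooled is not stated. Male donors are called M1 to M5 and female donors F1 to F5 here.

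Schwann cells are the glia of peripheral nerves. Those of the myelinating kind wrap large axons in compact layers of membrane held together by a few abundant proteins, whereas the thin axons of most Trpv1 neurons lie bare in the pockets of non-myelinating (Remak) Schwann cells. Myelin genes are switched on in Schwann cells by Sox10 and Egr2. Reads on these genes in sorted neurons were taken as a reading of Schwann cell RNA. In such bulk libraries, fewer cells of a type and less RNA per cell cannot be told apart.

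The lumbar libraries held 43499216 to 61822780 reads on genes and the sacral libraries 46044602 to 65542378, and 20720 to 22507 genes had a value. All 8 genes had one in each of the 20 libraries. The unit is log2 RPKM, reads per kilobase of exon scaled to the library, so levels can be compared between genes per length. Pmp22 had the highest level, with a mean of 9.54 ± 0.28 (SD, n = 20), and Mag the lowest, at -0.23 ± 1.28. Between them lay Mbp at 5.93 ± 0.69, Egr2 at 5.31 ± 0.60, Cnp at 4.997 ± 0.38, Mal at 4.82 ± 0.76, Sox10 at 3.99 ± 0.84 and Prx at 2.89 ± 0.84. Within donors, each neighbour in this order of levels differed from the next at an adjusted p of at most 0.0296 (exact permutation test over 10 donors, two-sided, 7 pairs), except for Cnp and Mal, which differed by 0.17 ± 0.33 (exact p = 0.133). The Pmp22 level rested on 59857 to 130056 reads per library. Mag rested on 13 to 323 reads, so its values carry far more counting error than those of the other genes.

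Central myelin was looked for with 6 oligodendrocyte genes. Olig1 and Olig2, its defining transcription factors, had no read in any library, where a count of 0 allows up to 3 reads. Mog, Mobp, Opalin and Hapln2 had values in 6, 12, 2 and 4 libraries, and none of the 6 genes passed the filter for testing. Mobp, a gene of oligodendrocyte myelin, had 934 reads (1.60 log2 RPKM) in the lumbar library of F3, which is above the highest Mag value of any library, 1.33. It had 190 reads in the sacral library of F3, 221 and 161 in the lumbar libraries of M1 and M4, and at most 31 in the other 16. Mog, Opalin and Hapln2 reached at most 18, 30 and 10 reads, those of Mog and Opalin in libraries of F3. A fit with F3, M1 and M4 left out was chosen after these values were seen. The same 6 of the 8 genes were then DEGs between the levels as with all 10 donors. Mbp was at 0.89 (limma, adjusted p = 0.00374) and Mag at 1.32 (adjusted p = 0.0170). In that fit 6093 genes over all were DEGs, 2138 upregulated in lumbar and 3955 in sacral DRG. The part of central myelin RNA in the change was not tested. Mbp, Cnp, Mal and Mag are made by both kinds of myelinating glia, whereas Pmp22 and Prx mark the peripheral kind.

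Between the levels, 6 of the 8 genes were DEGs, all upregulated in lumbar DRG. Of all 16304 genes tested, 45.6% were DEGs, 15.3% upregulated in lumbar and 30.3% in sacral DRG. DEGs are genes at an adjusted p of at most 0.05 in limma, with the donor as a random block, and each log2 fold change subtracts sacral from lumbar, so that negative values mean more in sacral DRG. The median log2 fold change of the 8 genes was 0.87, beside -0.11 for all tested genes. Lumbar exceeded sacral in 78 of the 80 differences between the 2 libraries of a donor, which are 8 genes in 10 donors. The 8 genes of a library share its scaling and its sort, so these are 10 observations and not 80. Each of 6 genes was higher in lumbar DRG in all 10 donors, as were 6.55% of genes with a value in every library. None of the 8 had lumbar values that all lay above its sacral values, which 0.372% of genes did. The plot by donor shows these paired values.

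**Figure D1:**
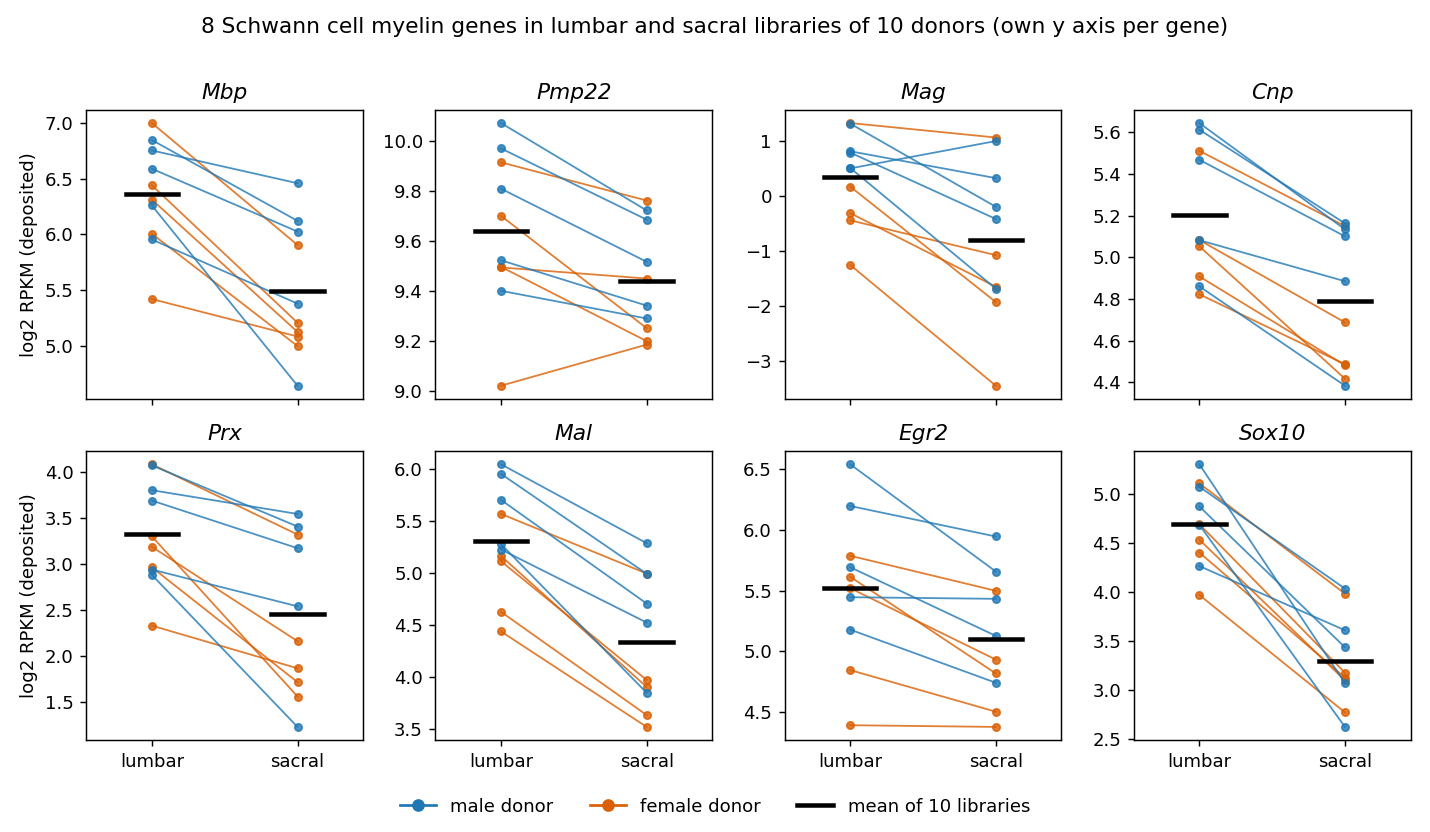
Deposited log2 RPKM of each of the 8 genes in the lumbar and sacral library of each donor, joined by a line, with blue for 5 male and orange for 5 female donors and a black bar for the mean of 10 libraries. Lines fall from lumbar to sacral in all donors but F2 for Pmp22 and M2 for Mag, and the lumbar and sacral values overlap in each panel.

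Of the genes of compact myelin, Mbp (ENSMUSG00000041607) encodes the basic protein that binds the inner membrane faces together. Its lumbar values ran from 5.42 over a median of 6.38 to 7.001, and its sacral values from 4.64 over 5.29 to 6.46. The sacral libraries of M2, M4, M3 and F3 reached into the lumbar range, and the other 6 lay below every lumbar library. Mbp was 1.82-fold higher in lumbar DRG, or by 0.87 ± 0.18 (standard error) on the log2 scale (limma, adjusted p = 0.000754). Pmp22 (ENSMUSG00000018217, chromosome 11 of mm9, 62942484 to 62973049) encodes a membrane protein of compact myelin that is also made outside the nerve. Lumbar values were 9.02 to 10.07 with a median of 9.61, and sacral values 9.19 to 9.76 with a median of 9.40. These ranges overlapped for most libraries, and the lowest value of all was a lumbar one, from F2. The log2 fold change of Pmp22 was 0.20 (± 0.10 standard error, limma adjusted p = 0.122), and it was not a DEG, although lumbar exceeded sacral in 9 donors. With array quality weights it was one, at 0.26 (limma, adjusted p = 0.0222).

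Outside the compact layers, Mag (ENSMUSG00000036634, chromosome 7, 31684202 to 31699851) encodes an adhesion molecule of the membrane that faces the axon. Lumbar values were -1.26 to 1.33 with a median of 0.51, and sacral values -3.46 to 1.06 with a median of -0.75. F2 was lowest at both levels, with 13 reads in its sacral library, and F3 was highest at both. The log2 fold change was 1.15 (± 0.38 standard error, limma adjusted p = 0.0190), the least precise of the 8. Without M3 or without F4 it was no longer past the threshold, at 1.08 (adjusted p = 0.0502) and 1.05 (adjusted p = 0.0555), and with a pseudocount of 1 RPKM before the log it was 0.44 (adjusted p = 0.0311). Cnp (ENSMUSG00000006782, chromosome 11, 100436218 to 100453043) encodes an enzyme that keeps cytoplasmic channels in the sheath open. It ran from 4.82 to 5.64 (median 5.08) in lumbar and from 4.38 to 5.16 (median 4.79) in sacral libraries. The 10 donors fell within a narrow band of change, 0.20 to 0.64, although the groups overlapped. Its log2 fold change was 0.42 (± 0.11 standard error, limma adjusted p = 0.00432), or 1.33-fold. Cnp shares 154 of its 3639 exon bases (4.23%) with Dnajc7 on the opposite strand, whose own change was -0.38, and strand-aware counting is not stated, so a small part of its reads is uncertain.

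Prx (ENSMUSG00000053198, chromosome 7, 28284343 to 28305233) encodes periaxin, a scaffold that ties the outer Schwann cell membrane to the basal lamina. Its lumbar values were 2.33 to 4.08 with a median of 3.24, and its sacral values 1.23 to 3.54 with a median of 2.35. Sacral libraries of M2, M3, M4 and F3 lay above the lumbar median or close to it, and those of M5, F1, F2, F4 and F5 lay below every lumbar library. Prx was 1.83-fold higher in lumbar DRG, or by 0.87 ± 0.25 (standard error) on the log2 scale (limma, adjusted p = 0.00668). It shares 300 of 5579 exon bases (5.38%) with the predicted gene Gm15541. Mal (ENSMUSG00000027375, chromosome 2, 127458962 to 127482431) encodes a proteolipid that sorts cargo to the myelin membrane. Lumbar values ran from 4.44 to 6.05 (median 5.25) and sacral values from 3.52 to 5.29 (median 4.24). The sacral libraries of M1, M2, M3, M4 and F3 lay within the lumbar range. Every donor changed by 0.57 or more, and the log2 fold change was 0.97 (± 0.17 standard error, limma adjusted p = 0.000122), or 1.97-fold.

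Of the transcription factors, Egr2 (Krox20; ENSMUSG00000037868, chromosome 10, 66998223 to 67004936) switches Schwann cells to myelination. It ran from 4.39 to 6.54 (median 5.57) in lumbar and from 4.38 to 5.95 (median 5.03) in sacral libraries. The ranges of the levels overlapped over most of their length. All 10 donors had more in lumbar DRG, but by only 0.01 in F1 and in M3. The log2 fold change was 0.42 (± 0.18 standard error, limma adjusted p = 0.0575), above the threshold. With the replicate block as a fixed effect the same change had an adjusted p of 0.00228, without F1 it was 0.47 (adjusted p = 0.0313), and with array quality weights 0.43 (adjusted p = 0.0478). Egr2 also belongs to a family of immediate early genes, and 2 of its relatives and Fos were read after its value was seen. Egr3 was a DEG at 0.67 (± 0.22 standard error, limma adjusted p = 0.0159), whereas Egr1 was at 0.34 (adjusted p = 0.0584) and Fos at 0.13 (adjusted p = 0.365).

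Sox10 (ENSMUSG00000033006, chromosome 15, 78985343 to 78994920) defines the Schwann and satellite glial lineages from the neural crest onwards. Its lumbar values were 3.97 to 5.31 with a median of 4.69, and its sacral values 2.62 to 4.04 with a median of 3.15. The groups overlapped only through the lumbar library of F5 and the sacral libraries of M4 and F3. Its log2 fold change of 1.40 (± 0.16 standard error, limma adjusted p = 2.72e-06), or 2.64-fold, was the largest of the 8. The difference ran from 0.66 in M1 to 2.24 in M2. Sox2, a gene of immature Schwann cells and satellite glia that was added after its value was seen, was also a DEG, at 0.75 (± 0.18 standard error, limma adjusted p = 0.00238), and was higher in lumbar DRG in each of the 10 donors.

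The 8 genes did not change by the same amount. All 28 pairs of genes were compared by the difference of their changes within donors (exact permutation test, two-sided, 10 donors), and 15 pairs differed at an adjusted p of at most 0.05. Sox10 changed more than Pmp22, Cnp, Egr2 and Mbp in all 10 donors, with the smallest p that 10 donors allow (exact p = 0.00195, adjusted p = 0.00911). It exceeded Mal by 0.43 ± 0.44 (SD, n = 10, exact permutation test, adjusted p = 0.0149) and Prx by 0.53 ± 0.57 (adjusted p = 0.0401). Sox10 and Mag differed by 0.26 ± 1.03 (adjusted p = 0.597, exact permutation test), a spread too wide to order them. Mbp, Prx, Mal and Mag were not separated from each other at the threshold. Mal changed more than Egr2, Cnp and Pmp22, by 0.56 ± 0.42, 0.56 ± 0.23 and 0.78 ± 0.29. Cnp in turn changed more than Pmp22, by 0.22 ± 0.18 (adjusted p = 0.0149, exact permutation test).

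The start regions of these genes are shown because Sox10 and Egr2, which are among the 8, are known to act on myelin genes. From RefSeq (GRCm38.p6, a later build than the mm9 of the files), 15 windows of 250 bases before a transcript start were taken. They cover 6 of the 8 genes, namely Pmp22, Mag, Cnp, Prx, Mal and Egr2. Windows at the locus of Mbp were not counted among the 15, for a reason that is not recorded, and Sox10 had no window. The shares of the 15 windows below thus cover neither gene. All windows were searched on both strands for the SOX letters ACAAAG or ACAATG and for the EGR letters GNGGGCG, which do not overlap each other. Capitals mark the matches in the 3 windows below, which hold one or both kinds, on the strand of the gene.
Cnp, chr11:100574689-100574938, plus strand: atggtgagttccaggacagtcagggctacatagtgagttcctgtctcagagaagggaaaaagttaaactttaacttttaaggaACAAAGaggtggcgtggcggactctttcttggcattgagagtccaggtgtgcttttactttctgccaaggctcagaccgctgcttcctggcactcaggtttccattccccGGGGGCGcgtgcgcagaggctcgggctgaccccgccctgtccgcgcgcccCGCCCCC
Mag, chr7:30914923-30915172, minus strand: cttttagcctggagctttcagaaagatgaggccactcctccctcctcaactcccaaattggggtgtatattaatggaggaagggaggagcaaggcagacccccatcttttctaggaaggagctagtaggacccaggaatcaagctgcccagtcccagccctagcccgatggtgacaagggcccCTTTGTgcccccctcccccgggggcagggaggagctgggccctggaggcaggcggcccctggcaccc
Pmp22, chr11:63131207-63131456, plus strand: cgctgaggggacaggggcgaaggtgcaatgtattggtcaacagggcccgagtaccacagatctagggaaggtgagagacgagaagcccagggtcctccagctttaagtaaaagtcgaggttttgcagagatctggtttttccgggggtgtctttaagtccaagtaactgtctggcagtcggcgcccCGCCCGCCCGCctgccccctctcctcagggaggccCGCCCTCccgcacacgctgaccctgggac
The Cnp window holds one SOX and 2 EGR matches, that of Mag one SOX match, and that of Pmp22 3 EGR matches, a pair of which overlap. Several windows of a gene overlap, and the same Mag match was counted in 2 of them. In all, 3 of the 15 windows (20.0%) held SOX letters, beside 25.2% of 32851 windows of all genes, and 4 (26.7%) held EGR letters, beside 28.3%. The shares are thus near those of all genes. The single windows of Prx and Mal, genes that changed by 0.87 and 0.97, held neither. A match is a run of letters only and was not tied to the values.

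Other genes of the myelinating Schwann cell were read from a list of 30, of which 29 were found under 1 identifier and 28 tested. Among these, 22 were upregulated in lumbar DRG, 1 in sacral DRG and 5 were not DEGs, with a median log2 fold change of 0.82. Pmp2, a lipid carrier of peripheral myelin, changed most, at 1.71 (± 0.30 standard error, limma adjusted p = 0.000119). Its difference ran from -0.26 to 3.06 over donors, on 19 to 280 reads per library. The lipid enzymes of myelin followed: Gal3st1, which makes sulfatide, was at 1.47, Fa2h, which makes hydroxylated fatty acids, at 1.41, and Ugt8a, which makes galactocerebroside, at 1.17. Gal3st1 rested on 18 to 148 reads, so its values and those of Pmp2 carry much counting error, as do those of Mag. Lgi4, a secreted signal for Schwann cells, was at 1.38. Cldn19, of the tight junctions in the sheath, was at 1.10.

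Receptors that Schwann cells use for myelination were upregulated in lumbar DRG too. Erbb3 and Erbb2, which form the neuregulin receptor, were at 1.24 and 1.10, and Gpr126, an adhesion receptor needed to start myelination, at 0.91. Dhh, a hedgehog ligand made by Schwann cells, was at 1.11. Of the Egr2 partners, Nab2 was a DEG at 0.64 and Nab1 was not, at 0.09 (limma adjusted p = 0.446). Gldn at 0.05, Mpp6 at -0.05, Gjb1 at -0.06 and Ncmap at 0.47 were not DEGs either, and Gjb1, the gap junction protein of peripheral myelin, had a standard error of 0.43. Tspan2, a tetraspanin of myelin, was the one gene of the list upregulated in sacral DRG, at -0.55 (± 0.10 standard error, limma adjusted p = 0.000179), and all 10 donors were higher there. Of these, Ncmap, Cldn19, Mpp6, Tspan2, Gldn, Nab2, Erbb2, Gpr126 and Lgi4 overlap another gene on the opposite strand.

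**Figure D2:**
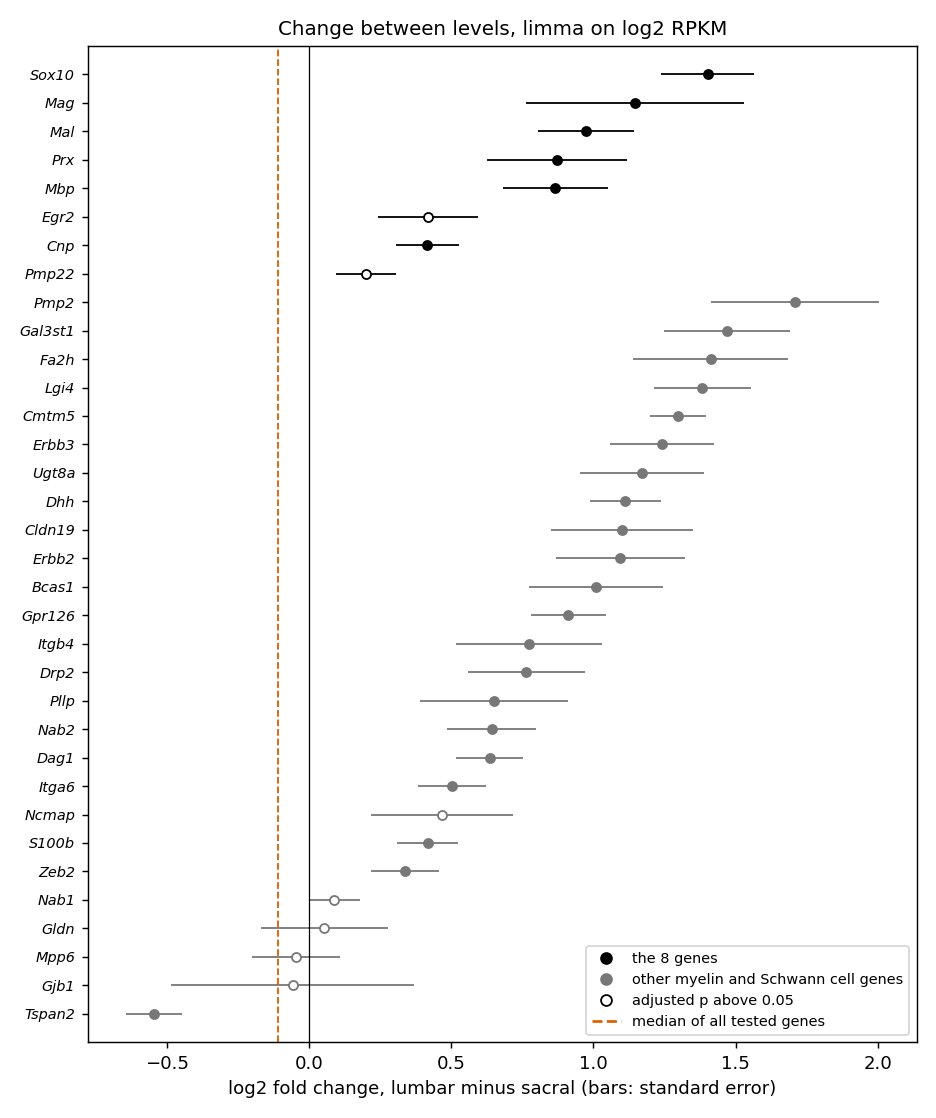
Log2 fold change between lumbar and sacral DRG with its standard error for the 8 genes (black) and 26 of the 28 other tested myelin and Schwann cell genes (grey), with open points where the adjusted p is above 0.05. The dashed line marks the median of all tested genes, -0.11, and Tspan2 at -0.55 is the only gene whose filled point lies to its left.

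Genes of other cells moved between the levels as well. All 8 satellite glial cell genes were upregulated in lumbar DRG, with a median log2 fold change of 1.03. Apoe, the most abundant, was at 0.999, Fabp7, which changed most, at 1.38, and Glul, which changed least, at 0.45. Endothelial genes were up in lumbar DRG in 4 of 4, from Pecam1 at 0.81 to Cldn5 at 1.22, with Cdh5, the most abundant, at 0.95. Of 8 macrophage genes only 4 were tested, and 3 of these were up in lumbar DRG, with Lyz2 at 1.71 and Cd68, which was not a DEG, at 0.47. Of the fibroblast genes 3 of 4 were, with Lum at 1.31, whereas Dcn was at -0.35 (limma adjusted p = 0.133). Of 10 neuronal genes, 8 were upregulated in sacral DRG, with a median of -0.59, and Scn9a changed most, at -1.06. Calca, the most abundant, was at 0.16 (limma adjusted p = 0.160).

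Of the genes of non-myelinating Schwann cells, Cdh19 and Matn2 were upregulated in lumbar DRG, at 1.09 and 0.73. Scn7a, which sensory neurons express too, was upregulated in sacral DRG, at -0.79 (± 0.11 standard error, limma adjusted p = 1.23e-05). Gfap had a value in 18 libraries and was below the filter.

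As a mean over the 8 genes, lumbar libraries were at 5.05 ± 0.44 (SD, n = 10) and sacral libraries at 4.26 ± 0.58, and the difference within donors ran from 0.54 to 1.27. The satellite glial mean was at 6.06 ± 0.39 and 5.12 ± 0.31, with differences of 0.37 to 1.42. The neuronal mean was at 6.998 ± 0.27 in lumbar and 7.52 ± 0.13 in sacral libraries, with differences of -0.99 to -0.19. The part of satellite glial, vascular and neuronal RNA in the change of the myelin genes was not tested. Counted as reads, the 8 genes together took 0.260% ± 0.041 of all reads in lumbar and 0.251% ± 0.058 in sacral libraries (SD, n = 10). This share, of which most is Pmp22 and Mbp, was larger in lumbar DRG in 7 of 10 donors and smaller in the other 3, so it differed by less than the spread between donors.

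**Figure D3:**
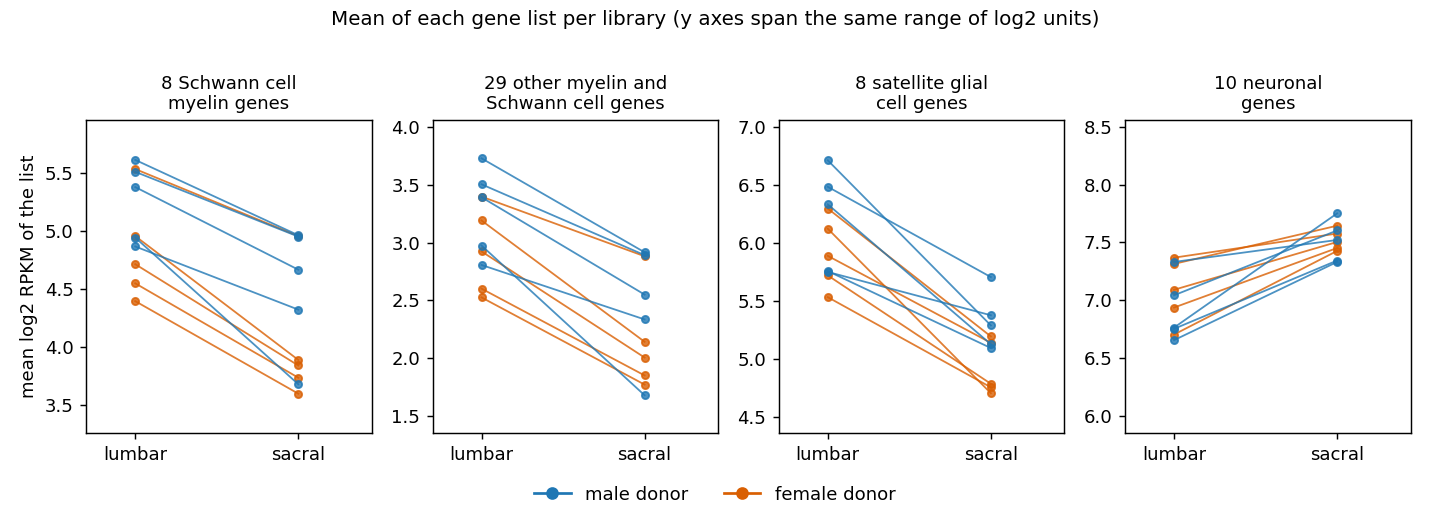
Mean log2 RPKM per library of the 8 genes, 29 other myelin and Schwann cell genes, 8 satellite glial cell genes and 10 neuronal genes, with the lumbar and sacral library of each donor joined (blue male, orange female). The first 3 means fall from lumbar to sacral in all 10 donors, and the neuronal mean rises in all 10.

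The size of the change, and for some genes its direction, depended on what the libraries were scaled to. With each library set relative to its neuronal mean, all 8 genes were upregulated in lumbar DRG, where 58.3% of all genes were and 3.43% were upregulated in sacral DRG, and the median of all tested genes moved from -0.11 to 0.41. Relative to the satellite glial mean, Sox10 alone remained upregulated in lumbar DRG, at 0.46 (± 0.13 standard error, limma adjusted p = 0.00158), as were 1.65% of all genes. On that scale Pmp22 at -0.74, Cnp at -0.53 and Egr2 at -0.53 were upregulated in sacral DRG, as were 83.0% of all genes, and the median of all tested genes was -1.05. Mbp at -0.08, Prx at -0.07, Mal at 0.03 and Mag at 0.20 were past the threshold in neither direction.

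Scaled to total reads with voom, Mbp, Mag, Prx, Mal and Sox10 were DEGs, from 0.53 for Prx and Mbp to 1.06 for Sox10, with 8.6% of all genes upregulated in lumbar and 58.6% in sacral DRG and a median of -0.43. Cnp, Egr2 and Pmp22 were then at 0.08, 0.09 and -0.13 and were not DEGs. With TMM scaling of the same reads, all 8 were DEGs, as were 21.3% of all genes in that direction and 21.6% in the other, and the median of all tested genes was 0.01. After quantile normalization 7 were DEGs, Pmp22 being the exception at 0.09, as were 18.6% of all genes in that direction and 23.0% in the other. The share of all DEGs that were upregulated in lumbar DRG was 33.5% with the deposited values, 44.8% after quantile normalization, 49.7% with TMM, 12.8% with total reads, 94.4% relative to the neuronal mean and 1.95% relative to the satellite glial mean.

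**Figure D4:**
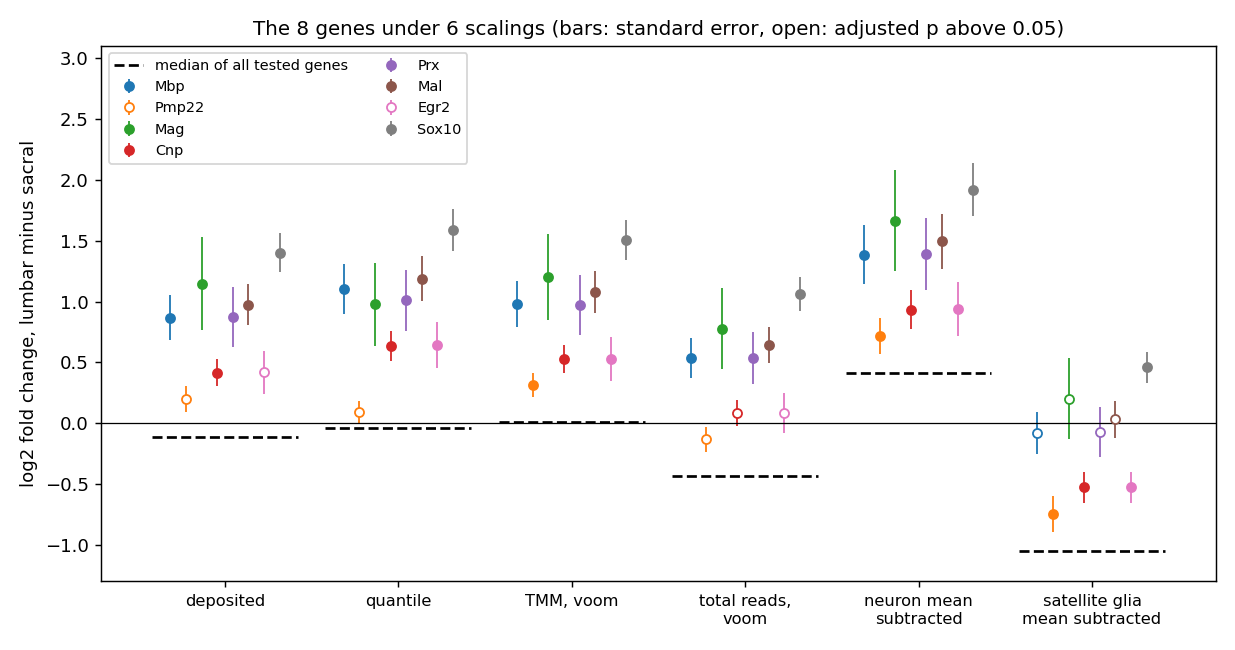
Log2 fold change with its standard error for each of the 8 genes under 6 scalings of the libraries, open where the adjusted p is above 0.05, with a dashed line at the median of all tested genes. Sox10 is highest under every scaling, and Pmp22 is lowest.

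Donors that were high in one gene tended to be high in the others. At both levels, M2, M4 and F3 each ranked in the top 3 of 10 donors for 7 of the 8 genes. In lumbar DRG, F2 had the lowest value for 5 genes and F5 for 2, and in sacral DRG M5 was lowest for 4 and F2 for 3. The 8 genes of a library share its depth, its scaling and its sort, so these ranks are 1 observation per donor and not 8.

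None of the 8 genes differed between the sexes at an adjusted p of at most 0.05 in limma, in lumbar or in sacral DRG. Over all genes, 0.0427% and 0.0368% passed. At an unadjusted p under 0.05, 2 of the 8 passed in lumbar DRG (11.4% of all genes) and 1 in sacral DRG (8.09%). In the lumbar libraries these were Mal, at -0.66 for female minus male (± 0.26 standard error, adjusted p = 0.366), and Egr2, at -0.58 (± 0.27 standard error, adjusted p = 0.432). In sacral libraries it was Mal again, at -0.67 (adjusted p = 0.563). The fitted difference was below 0 for all 8 genes at both levels, as it was for 36.5% of all genes tested, and the genes share their donors. The difference of the level change between the sexes passed for none of the 8 at either threshold, where 4.1% of all genes were at an unadjusted p under 0.05, and its adjusted p was 0.9996 for each gene.

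In male donors alone, Mbp, Mal and Sox10 were DEGs, and Mag at 0.98 (adjusted p = 0.0626), Cnp at 0.40 (adjusted p = 0.0707) and Prx at 0.70 (adjusted p = 0.130) were not, with 5 donors in the fit. In female donors alone 5 genes were DEGs, and Mag at 1.31 (adjusted p = 0.136) was not. Over all genes 4644 were DEGs in males alone and 3671 in females alone, against 7436 in both together. In males alone 1669 of them were upregulated in lumbar and 2975 in sacral DRG, and in females alone 1152 and 2519.

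The genes whose values over the 20 libraries ran closest to the mean of the 8 were found by the root mean square difference after centring each gene on its own mean, over 15318 genes with a value in every library. Outside the marker lists, the nearest were Hspg2 at 0.15 log2 units, Timp3 at 0.17, Ifitm3 and Sparc at 0.19, Col4a1 at 0.20, Syn3, Snap23 and Tgfbr3 at 0.21, and Cryab and Limch1 at 0.22, beside a median of 0.77 for all genes. Hspg2 encodes perlecan and Col4a1 a type IV collagen chain, both of basement membranes, and Sparc a secreted matrix protein. Timp3 lies within Syn3, on the other strand. Of the 8 genes themselves, which make up the mean, Mal and Mbp ranked 3rd and 4th, at 0.17 and 0.19, and Mag ranked 6386th, at 0.73.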

How the data were processed

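RNA of sorted cells was amplified and sequenced by the authors, who checked reads with FASTX, aligned them to mm9 with Subread, kept unique alignments, counted them on genes with featureCounts, and applied voom and TMM. The submitters' processing notes name limma 3.26.9 and edgeR 3.12.1. The values that the authors deposited are log2 RPKM with a cell left empty at 0 reads. Every library has a median of 0.93, by a step not given in the sources used here. Libraries were grouped by label. No columns of authors' comparisons were used.

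Symbols, positions and exon lengths came from the GENCODE annotation of the same build (37205 of 37620 identifiers matched). Whole reads were worked back from the values and exon lengths, and 27506 of 27999 genes came out whole within 0.01 of a read; depth refers to these genes, and counts and limits cover counting error only. Genes with a mean log2 RPKM above -1 in at least 1 group with 3 or more values were tested with limma 3.58.1 (statmod 1.5.0, R 4.3.3) on the log2 values: 4 group means, donor as random block (correlation 0.17), mean-variance trend, Benjamini-Hochberg adjustment at 0.05 over all tested genes. Lumbar and sacral libraries with the same animal numbers were paired. Deviations from the group means correlated at 0.18 on average within the 10 pairs (0.04 to 0.30). Between different donors of a sex the mean was -0.04 over 40 pairs, with a range of -0.37 to 0.33 that spans the values within donors. The methods of the study name 5 mice of each sex and block by donor, whereas the labels carry 20 animal numbers, a pair to each donor. The numbers that close the labels run in unbroken blocks of 5 by sex and level. What they count is not stated, so any order of handling they mark and the groups cannot be told apart. Single values were compared over donors with exact permutation tests in SciPy 1.17.1 (Python 3.11.15, pandas 2.3.3, numpy 2.4.6, matplotlib 3.10.9). The fit and the hand-written TMM were tested on simulated data.

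Members and gene lists were chosen with earlier results of these data known. Named genes are the 8 members, the other myelin genes with a value in all libraries, the most abundant and the most and least changed gene of each marker list, and the 10 nearest genes outside the lists. Pou3f1 matched more than 1 identifier and was left out. Some genes that this rule covers are counted in the lists but not reported here by name. Alternatives were other filters, pseudocounts, scalings, blocks, weights, each sex alone and each donor left out, 25 in all, and, chosen after seeing the data, the donors with over 100 Mobp reads left out.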

Additional observations from a re-analysis of the deposited data

Results flagged for a closer look

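Among the 8 genes, each of the 4 groups of 5 libraries was searched for a library far from the others, by the gap to the nearest value over the range of the group, which was 32 searches. One value stood apart. Mbp was at 5.9045 in the sacral library of F3, whereas the other 4 female sacral libraries lay between 4.9954 and 5.2053, so that the gap was 0.769 of the range, above the limit of 0.71 for 5 values. Chance alone gives about 1 in 20 such searches. F3 ranked in the top 3 of 10 donors for 7 of the 8 genes at both levels. The lumbar library of F3 also held the most reads on Mobp, a gene of oligodendrocyte myelin, at 934, and its sacral library held 190, and their part in the Mbp value was not tested. Without F3, Mbp was still a DEG between the levels (limma, adjusted p = 0.000955).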

How the results depend on the processing

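Sox10 was upregulated in lumbar DRG in all 26 alternatives, from 0.46 to 1.92 (limma, adjusted p from 7.03e-07 to 0.00158). Relative to the satellite glial mean, the direction turned for Mbp (-0.0775), Prx (-0.0721), Pmp22 (-0.74), Cnp (-0.53) and Egr2 (-0.53), so that 1 of the 8 genes was a DEG upregulated in lumbar DRG and 13796 genes were DEGs over all. With array quality weights all 8 genes were DEGs, Pmp22 at 0.26 (limma, adjusted p = 0.0222) and Egr2 at 0.43 (adjusted p = 0.0478) included. Over all, 8321 genes were DEGs there, 2885 upregulated in lumbar and 5436 in sacral DRG. TMM scaling and the neuronal mean also gave 8, with 6865 and 10061 genes over all. With reads scaled to the library total the direction of Pmp22 also turned (-0.13), without passing the threshold. In male donors alone 3 of the 8 genes were DEGs, all upregulated in lumbar DRG, and 4644 genes over all, and in female donors alone 3671 genes over all, from 5 donors each. Leaving out each donor in turn gave 5 to 7 of the 8 genes, 21 to 22 of the other myelin genes and 6623 to 7475 genes over all as DEGs. Without the replicate block for the paired libraries 6 of the 8 genes and 6577 genes over all were DEGs, and with the replicate block as a fixed effect 7 and 7157, where Egr2 was the gene gained and no other of the 8 changed its call. No gene differed by sex or by sex and level among the 8 in any alternative that allowed the test. Other filters and pseudocounts each gave 6 of the 8 genes as DEGs, with 6393 to 7600 genes over all. Under the stricter filter Mag was not tested, and Egr2 was past the threshold (limma, adjusted p = 0.0417). The cause of the changes between alternatives was not tested. Mag is limited by its few reads, with a lowest count of 13 in the sacral library of F2, which held 53948216 reads on genes.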
